A study of Mus musculus with 8 samples.

Results

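The dopamine system of the retina was examined through 9 genes, chosen by name: Th, Ddc, Slc18a2, Slc6a3 and Maoa, which make, move and break down dopamine, and the receptor genes Drd1, Drd5, Drd2 and Drd4. All 9 are among the 17500 genes of the deposited table and all 9 passed the filter on low counts, which left 16797 genes for testing. The symbol matched directly for 8 of them. Drd1 was listed under its older symbol Drd1a and was matched by its gene ID.

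The libraries came from whole retinas of 4 Rbfox2-/- and 4 control mice, with 1 library per mouse, and the purpose of the study was to find genes regulated by the RNA-binding protein Rbfox2 in inner retinal neurons. All mice were on the C57BL/6J background and 6 months old, and the labels give tamoxifen and 4 months for all of them. By the study's methods, tamoxifen was given as a short course and the retinas were taken 4 months after it. The Rbfox2-/- mice carried loxP-flanked Rbfox2 alleles and a tamoxifen-inducible Cre under the ubiquitin C promoter. The deletion was induced in the adult. By staining, the paper reports that few cells of the ganglion cell layer kept Rbfox2 and that horizontal cells lost it. It describes the loss in amacrine cells of the inner nuclear layer as more modest, so the loss was uneven between cell types. The controls were heterozygous Rbfox2 fl/+ mice of the same age, and whether they also carried the Cre is not given in the sources used here. Retinas were collected in the morning, which matters for Drd4 because its mRNA is known to follow the daily cycle.

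In the retina dopamine is made by a sparse class of amacrine cells, and it acts as the signal of light and day. Tyrosine hydroxylase, encoded by Th, makes L-DOPA from tyrosine in the rate-limiting step, and the decarboxylase encoded by Ddc turns L-DOPA into dopamine. The D1-like receptors (Drd1, Drd5) raise cAMP in the cells that carry them, and the D2-like receptors (Drd2, Drd4) lower it, Drd2 as the autoreceptor of the dopaminergic cell and Drd4 in photoreceptors.

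Library totals ran from 160630226 to 211283591 counts, so that 3 counts corresponded to 0.0144 to 0.0189 CPM, the count scaled to the size of the library. Values by mouse are given in 1 order throughout, which is M833, M894, M896, M898 for controls and M893, M901, M902, M909 for Rbfox2-/- mice. Rbfox2 itself, the targeted gene, was at 144 to 157 CPM in the controls and at 53.6 to 59.4 CPM in the Rbfox2-/- mice, with a log2 fold change of -1.41 (SE 0.0456). The libraries of M901 and M902, both Rbfox2-/-, stood apart from the other 6: Xist had 277506 and 275967 counts in them and 312 to 426 counts in each of the others, and they were separated along the leading principal component (40.5% of the variance). The labels give no sex. No control library had high Xist, so sex as read from Xist is partly confounded with genotype in every comparison here. The log2 fold change of each of the 9 genes is given with and without M901 and M902. M909, also Rbfox2-/-, stood apart along the second component (19.2% of the variance). Among all 16797 genes tested, 11 passed a false discovery rate (FDR) of 0.05 (0.0655%, of which 0.0357% higher and 0.0298% lower in the Rbfox2-/- mice), 2233 had an unadjusted p under 0.05 (13.3%), and the values of the groups did not overlap for 1181 (7.03%).

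None of the 9 dopamine genes passed the FDR threshold in edgeR's quasi-likelihood test, 2 of 9 had an unadjusted p under 0.05, and 1 of 9, Th, passed the FDR in DESeq2, which 2.80% of all genes (460) did. The 2 with an unadjusted p under 0.05 were Th and Drd4, and without M901 and M902 there were 3, Th, Slc18a2 and Drd1, beside 6.01% of all genes. Th had the largest difference of the 9, with 1.37 times the control level in the Rbfox2-/- retinas, and Drd4 was at 0.852 times the control level. For both, the share of all genes with an unadjusted p under 0.05 gives the scale: 6.42% of the genes tested were higher and 6.87% lower at that threshold. The groups did not overlap for Th, among 3.64% of all genes that were higher in every Rbfox2-/- mouse, and for Drd1, among 3.39% that were lower in every one. The median log2 fold change over the 9 genes was -0.08, beside 0.0016 over all genes tested.

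**Figure D1:**
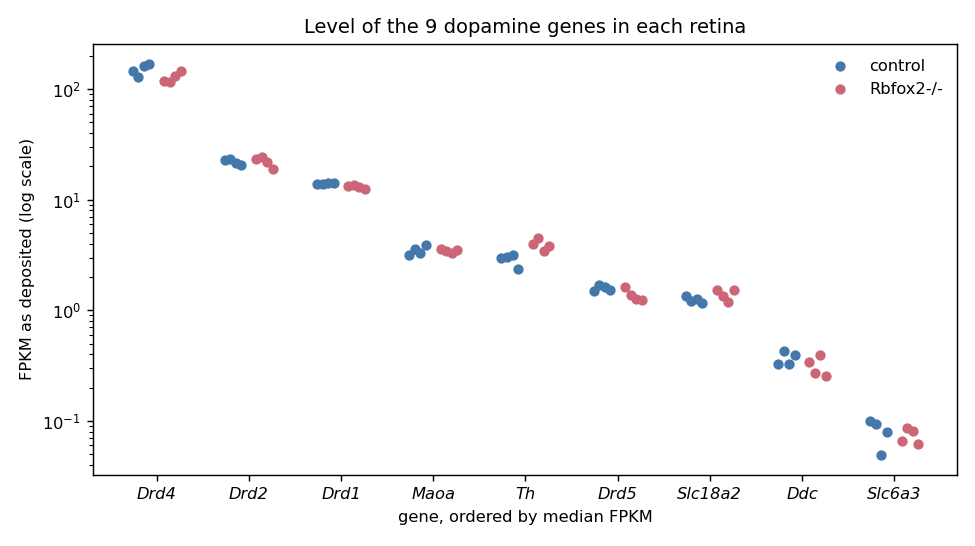
FPKM of the 9 dopamine genes as deposited by the authors, on a log axis, with 1 point per mouse, ordered by the median over the 8 mice; blue points are controls and red points Rbfox2-/- mice. The genes spread from Drd4, with a median of 139, to Slc6a3, with a median of 0.0804, and the difference between genes is far wider than that between groups.

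The order of the genes by abundance was read from the deposited FPKM values (fragments scaled to gene length and library size). Drd4 was the most abundant by a wide margin, at 116 to 171 FPKM with a median of 139, which is 6.21 times the median of the next gene. Drd2 followed with a median of 22.4 FPKM (19.0 to 24.1) and Drd1 with 13.7 FPKM (12.5 to 14.1), and the ranges of these 3 receptor genes did not overlap. Maoa (median 3.49 FPKM) and Th (median 3.30 FPKM) overlapped in their ranges over all mice. Within libraries, Maoa was above Th in every control and below it in every Rbfox2-/- mouse. The ranges of Drd5 (median 1.51 FPKM) and Slc18a2 (median 1.30 FPKM) also overlapped, with Drd5 the higher in every library except M909. Ddc and Slc6a3, both genes of the dopaminergic cell, were at the low end. Ddc was at 0.256 to 0.431 FPKM and Slc6a3 at 0.0488 to 0.100 FPKM. In a whole tissue, fewer cells of a type and less RNA per cell cannot be told apart.

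The promoters of Th and Drd4, the genes with an unadjusted p under 0.05, are shown with that of Slc18a2, the only other one of the 9 to carry the cAMP response element found at Th. Each is the RefSeq window (GRCm38.p6) from 250 bases before to 50 bases after an annotated start, printed 5′ to 3′ on the strand of the gene. Capitals mark the cAMP response element TGACGTCA in Th and Slc18a2 and the GC boxes GGGCGG in Drd4. The windows lie at chr7:142899946-142900245 (minus strand) for Th, chr19:59260628-59260927 (plus strand) for Slc18a2 and chr7:141291768-141292067 (plus strand) for Drd4.
Th: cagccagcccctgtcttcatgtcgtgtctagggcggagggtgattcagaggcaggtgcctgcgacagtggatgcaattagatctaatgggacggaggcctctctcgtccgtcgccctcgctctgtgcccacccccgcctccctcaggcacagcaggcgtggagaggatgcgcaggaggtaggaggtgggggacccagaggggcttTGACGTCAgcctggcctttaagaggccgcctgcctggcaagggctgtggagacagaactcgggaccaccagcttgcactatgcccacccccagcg
Slc18a2: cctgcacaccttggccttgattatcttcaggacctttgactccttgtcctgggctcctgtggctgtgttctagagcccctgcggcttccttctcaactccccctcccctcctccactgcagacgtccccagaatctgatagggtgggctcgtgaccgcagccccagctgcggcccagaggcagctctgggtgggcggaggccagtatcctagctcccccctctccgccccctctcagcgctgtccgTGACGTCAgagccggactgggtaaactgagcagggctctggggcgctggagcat
Drd4: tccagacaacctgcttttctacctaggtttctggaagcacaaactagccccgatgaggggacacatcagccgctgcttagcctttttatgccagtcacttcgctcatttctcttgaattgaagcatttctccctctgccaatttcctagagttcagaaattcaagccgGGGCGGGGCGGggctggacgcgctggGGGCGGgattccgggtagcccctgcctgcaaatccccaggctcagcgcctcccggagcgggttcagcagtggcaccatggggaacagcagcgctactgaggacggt
The element in the Th window lies 45 to 38 bases before the start, and that in the Slc18a2 window spans the start, from 4 bases before it to 3 bases after it. The Drd4 window holds 3 GC boxes, of which the first and second share 1 base. All 9 genes had at least 1 window, 11 in all, and both strands were searched. The cAMP response element was in 2 of the 9 genes and in 588 of 32851 RefSeq windows (1.79%). The GC box was in 8 of the 9 genes and in 35.7% of all windows. The sequence GGATTA, bound by the photoreceptor factor CRX, was in the windows of 0 of the 9 genes and in 7.06% of all windows. The E-box CACGTG was found in 1 gene, Slc6a3 (7.15% of all windows), and AAAGGTCA, bound by NR4A receptors, in 1 gene, Ddc (1.51%), which was also the only one with TATAAA (13.6%). The NR4A and TATA matches in Ddc overlap. These matches describe letters in the windows and were not tested for binding.

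Th lies on chromosome 7 from 142892752 to 142931128 on the minus strand (GRCm38, GENCODE M21, as for all gene positions here). In the controls its level was 5.33, 5.31, 5.54 and 4.10 CPM. The Rbfox2-/- mice were at 6.96, 7.99, 6.10 and 6.80 CPM. All 4 Rbfox2-/- values lay above all 4 control values, M898 was low among the controls, and M901 and M902, the libraries that stood apart, held the highest and the lowest Rbfox2-/- value. The means were 5.07 ± 0.655 CPM (SD, n = 4) and 6.96 ± 0.784 CPM (SD, n = 4), from 726 to 1541 counts per library. The log2 fold change was 0.46 (SE 0.113, 95% interval 0.21 to 0.71), with an adjusted p of 0.182 over all genes in edgeR's quasi-likelihood test. DESeq2 gave Th an adjusted p of 0.00903 at the same log2 fold change. Without M901 and M902 it was 0.44 (adjusted p = 0.654).

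Ddc, on chromosome 11 from 11814101 to 11898144 (minus strand), was measured with 100 to 152 counts per library, so that counting alone gave a spread of 8.92%. The controls were at 0.663, 0.860, 0.648 and 0.785 CPM and the Rbfox2-/- mice at 0.682, 0.550, 0.801 and 0.521 CPM. The groups overlapped over most of their range, with M902 at a level that only 1 control exceeded. Ddc had a log2 fold change of -0.21 (SE 0.186, 95% interval -0.63 to 0.20, adjusted p = 0.657). It was -0.30 without M901 and M902, and between -0.34 (without M902) and -0.13 (without M909 or M894) when 1 mouse was left out. The antisense gene 1700042O10Rik lies within Ddc on the opposite strand. Since the strand setting of the counting is not given in the sources used here, reads of the pair cannot be told apart.

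Slc18a2 encodes the vesicular transporter VMAT2, which loads dopamine and other monoamines into vesicles, and lies on chromosome 19 from 59260896 to 59296012 (plus strand), where the antisense gene Gm29261 overlaps its first bases. Control levels were 5.15, 4.53, 4.80 and 4.32 CPM, against 5.76, 5.20, 4.62 and 5.87 CPM in the Rbfox2-/- mice. In 3 of 4 Rbfox2-/- mice the level lay above the control range, and M902 lay inside it. Slc18a2 had a log2 fold change of 0.19 (SE 0.0960, 95% interval -0.02 to 0.40, adjusted p = 0.424), which was 0.31 (adjusted p = 0.715) without M901 and M902.

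Slc6a3 encodes the dopamine transporter, which takes dopamine back up from outside the cell, and lies on chromosome 13 from 73536747 to 73578672 (plus strand). It had the fewest reads of the 9 genes, 32 to 73 counts per library, for a counting spread of 14.3%. The controls were at 0.351, 0.317, 0.167 and 0.271 CPM and the Rbfox2-/- mice at 0.227, 0.301, 0.284 and 0.214 CPM. The Rbfox2-/- values lay wholly within the control range. The interval of the log2 fold change of Slc6a3, -0.70 to 0.48 around -0.11, included changes of either sign. Without M901 and M902 the estimate for Slc6a3 was -0.33 (adjusted p = 0.951).

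Maoa, the mitochondrial enzyme that oxidizes dopamine, serotonin and noradrenaline, lies on chromosome X from 16619698 to 16687818 (plus strand). Its level in the controls was 13.5, 14.7, 13.6 and 16.0 CPM, and in the Rbfox2-/- mice 14.9, 14.5, 13.8 and 14.8 CPM. The Rbfox2-/- values all fell between the lowest and highest control. The means were 14.4 ± 1.16 CPM and 14.5 ± 0.489 CPM (SD, n = 4 each), and the log2 fold change of Maoa had a 95% interval of -0.13 to 0.15. It was 0.04 without M901 and M902.

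**Figure D2:**
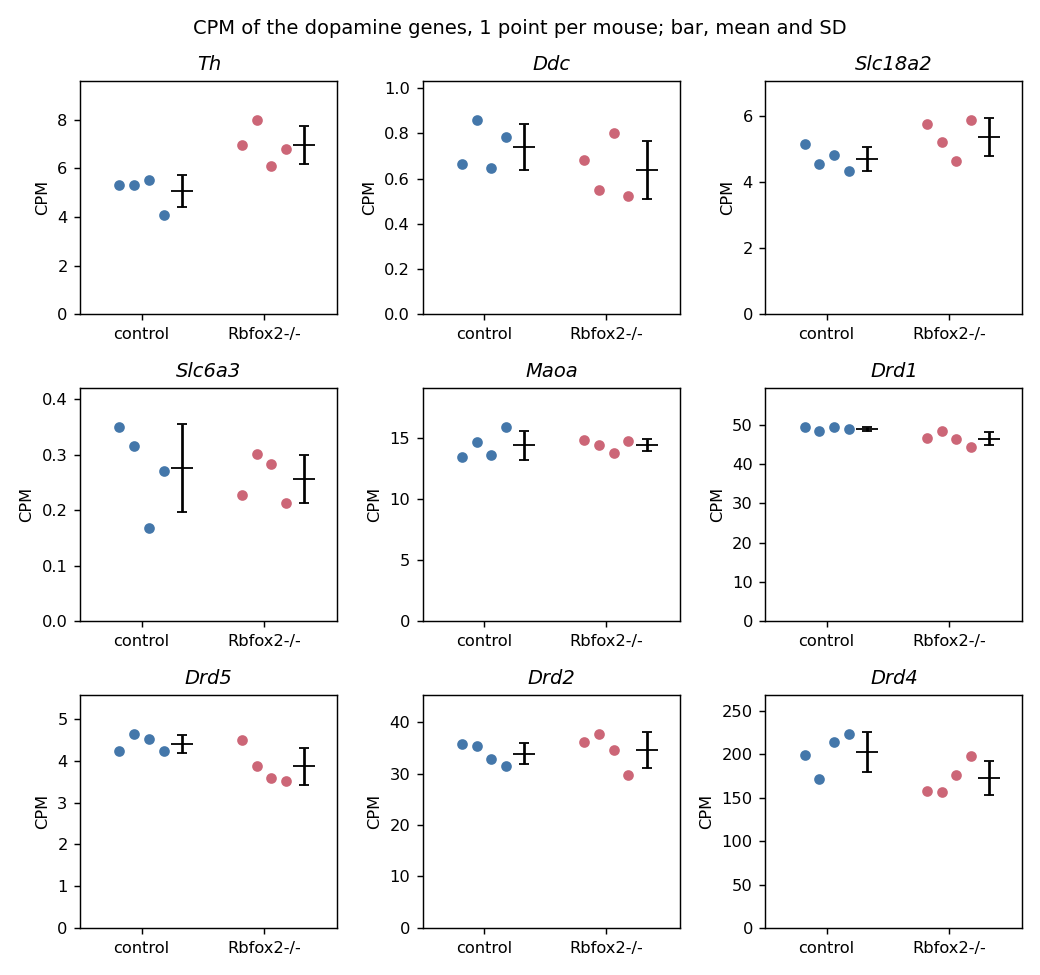
CPM of each of the 9 dopamine genes, with 1 point per mouse, blue for controls and red for Rbfox2-/- mice; the bar beside each group gives its mean and SD (n = 4), and every axis starts at 0. The groups are apart for Th and, narrowly, for Drd1, and overlap for the other genes.

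The products of Th and Ddc act one after the other, and VMAT2 and the dopamine transporter serve the same cell, so the levels of these genes were also set against Th within each library, as ratios of CPM. The Th to Slc18a2 ratio was 0.949 to 1.17 in the controls (median 1.10) and 1.16 to 1.54 in the Rbfox2-/- mice (median 1.27). The ratio of Th to Ddc was 5.22 to 8.55 in the controls (median 7.1) and 7.61 to 14.5 in the Rbfox2-/- mice (median 11.6), and that of Th to Slc6a3 was 15.1 to 33.1 and 21.5 to 31.9. The ranges of the groups overlapped for all 3 ratios, and the ratios were not tested. Of the 4 dopaminergic-cell genes, the groups were apart for Th alone.

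Among the receptors, Drd1 (chromosome 13, 54051183 to 54055705, minus strand) is used by horizontal cells and by sets of bipolar, amacrine and ganglion cells. It was at 49.6, 48.53, 49.5 and 48.9 CPM in the controls and at 46.8, 48.46, 46.4 and 44.4 CPM in the Rbfox2-/- mice. Every Rbfox2-/- value was below every control value, but the gap was that between 48.46 CPM in M901 and 48.53 CPM in M894. The means were 49.1 ± 0.494 and 46.5 ± 1.66 CPM (SD, n = 4 each), from 7356 to 10319 counts. Its log2 fold change was -0.08 (SE 0.0370, 95% interval -0.16 to 0.0038, adjusted p = 0.396), or -0.11 (adjusted p = 0.809) without M901 and M902. Of 10 bipolar and horizontal cell markers, 4 were lower and 1 was higher at an unadjusted p under 0.05, beside 6.87% and 6.42% of all genes. In every Rbfox2-/- mouse 4 were lower, beside 3.39% of all genes. Among them Calb1, a calcium-binding protein of horizontal cells, fell from 76.2 ± 1.84 to 57.9 ± 1.86 CPM (SD, n = 4 each, adjusted p = 0.00341). Calb1 was the 1 marker of the 10 that passed the FDR. For the protein, the paper reports that calbindin staining appeared unaffected. The sum of the 10 markers was 1540 to 1670 CPM in the controls and 1470 to 1560 CPM in the Rbfox2-/- mice, and its part in the values of Drd1 was not tested.

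Drd5, the other D1-like receptor, is a gene of 1 exon on chromosome 5 from 38319367 to 38322518 (plus strand), overlapped by the antisense gene Gm26560. Its controls were at 4.23, 4.66, 4.52 and 4.24 CPM, and its Rbfox2-/- mice at 4.51, 3.88, 3.60 and 3.53 CPM. In 3 of 4 Rbfox2-/- mice the level was below the control range, and M893 was inside it. Drd5 had a log2 fold change of -0.19 (SE 0.0949, 95% interval -0.40 to 0.03, adjusted p = 0.426), or -0.14 (adjusted p = 0.944) without M901 and M902.

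Drd2, on chromosome 9 from 49340627 to 49408177 (plus strand), was at 35.7, 35.4, 32.9 and 31.6 CPM in the controls and at 36.2, 37.8, 34.7 and 29.7 CPM in the Rbfox2-/- mice. The highest value and the lowest value were both from Rbfox2-/- mice, so that these spanned the control range. The means were 33.9 ± 1.99 and 34.6 ± 3.52 CPM (SD, n = 4 each). Drd2 had a log2 fold change of 0.03 (95% interval -0.14 to 0.19, adjusted p = 0.905), which turned to -0.05 (adjusted p = 0.990) without M901 and M902. The ratio of Drd1 to Drd2 in FPKM was 0.602 to 0.679 in the controls (median 0.634) and 0.563 to 0.657 in the Rbfox2-/- mice (median 0.577). These ranges overlapped, and the ratio leaves out Drd4, the more abundant D2-like gene.

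Drd4 lies on chromosome 7 from 141292006 to 141296464 (plus strand), with 1596287 bases between its end and the Th gene. Control levels were 199.8, 171, 214 and 224 CPM. The Rbfox2-/- mice were at 158, 157, 176 and 198 CPM. In 2 of 4 Rbfox2-/- mice the level was below every control, whereas M902 and M909 lay inside the control range. The means were 202 ± 23.1 and 172 ± 19.5 CPM (SD, n = 4 each), from 27789 to 41593 counts per library, so that counting gave a spread of only 0.538% beside 11.4% among the controls. The log2 fold change of Drd4 was -0.23 (SE 0.0941, 95% interval -0.44 to -0.02, adjusted p = 0.344). Without M901 and M902 it was -0.19 (adjusted p = 0.911), and the unadjusted p was then above 0.05. Drd4 made up 77.0% to 82.4% of the summed FPKM of the 4 receptor genes in the controls and 74.8% to 81.8% in the Rbfox2-/- mice.

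**Figure D3:**
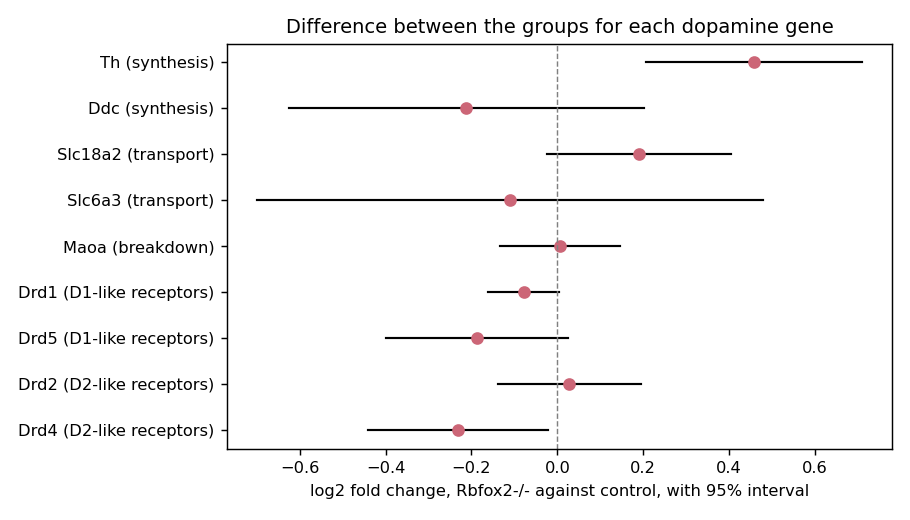
Log2 fold change of each dopamine gene, Rbfox2-/- against control, from edgeR's quasi-likelihood fit; points are estimates, bars 95% intervals, and the dashed line marks 0. The intervals of Th (0.21 to 0.71) and Drd4 (-0.44 to -0.02) lie to 1 side of 0, and that of Slc6a3 (-0.70 to 0.48) is the widest.

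The genes around these 9 were taken from 8 lists of the dopamine pathway, which hold 94 genes. Of these, 86 were in the table and 83 were tested, 2 of them with higher and 3 with lower values at an unadjusted p under 0.05 (6.02%, beside 13.3% of all genes), and 0 passed the FDR in the quasi-likelihood test. Their median log2 fold change was -0.02. Without M833 the number at an unadjusted p under 0.05 was 15, without M909 it was 12, and without M898 it was 2. Over all genes the share at that threshold moved too, to 17.6%, 17.8% and 8.83% in the same order. Of the genes named from these lists, Pde10a and Camk2a passed the FDR in DESeq2, beside 2.80% of all genes.

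The cofactor of tyrosine hydroxylase, tetrahydrobiopterin, is made by Gch1 and Spr and recycled by Qdpr. None of the 8 genes of its list had an unadjusted p under 0.05. The 2 most abundant, Qdpr and Spr, were at 63.1 ± 2.25 against 60.8 ± 1.15 CPM and at 25.7 ± 1.89 against 26.4 ± 0.789 CPM (control and Rbfox2-/-, SD, n = 4 each). Of the 10 genes that act on the tyrosine hydroxylase protein, 1 had an unadjusted p under 0.05: Camk2a, a subunit of calcium/calmodulin-dependent kinase II. It was at 59.2, 67.3, 72.9 and 68.6 CPM in the controls and at 57.8, 59.3, 57.2 and 55.3 CPM in the Rbfox2-/- mice. The control M833 lay level with the highest Rbfox2-/- mouse, and the other controls lay above all of them. Camk2a had a log2 fold change of -0.22 (SE 0.0585), with an adjusted p of 0.199 by quasi-likelihood and an adjusted p of 0.0259 by DESeq2. Without M833, the lowest control, it was -0.28 with an adjusted p of 0.0446 in the quasi-likelihood test.

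Of the 11 genes of catecholamine breakdown and conversion, Sult1a1, a sulfotransferase that conjugates phenols including dopamine, was the 1 with an unadjusted p under 0.05. It was at 3.63 to 5.38 CPM in the controls and at 2.25 to 4.57 CPM in the Rbfox2-/- mice, with M909 inside the control range, and its log2 fold change was -0.55 (SE 0.210, adjusted p = 0.320). Without M901 and M902, Sult1a1 had a log2 fold change of -0.29 (adjusted p = 0.930). Of the further monoamine transporters 4 were tested, none at an unadjusted p under 0.05. Slc29a4, a low-affinity transporter of the plasma membrane, was at 38.6 ± 2.38 and 38.3 ± 5.11 CPM, and Slc47a1 at 1.27 ± 0.114 and 1.402 ± 0.0900 CPM (control and Rbfox2-/-, SD, n = 4 each).

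Of 12 transcription factors known from dopamine neurons, 6 were tested. Pitx3, Lmx1a, Lmx1b, En1, Foxa1 and Foxa2 were not. Etv1, an ETS-family factor of the dopamine neurons of the olfactory bulb, was at 9.25 to 10.5 CPM in the controls and at 10.7 to 11.7 CPM in the Rbfox2-/- mice. The groups did not overlap, as for 3.64% of all genes that were higher in every Rbfox2-/- mouse. Its log2 fold change was 0.13 (SE 0.0586, adjusted p = 0.374). Without M901 and M902, Etv1 had a log2 fold change of 0.09 (adjusted p = 0.935).

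On the receptor side, none of the 16 G protein and adenylyl cyclase genes had an unadjusted p under 0.05. The 2 most abundant, Gnb5 and Gnas, were at 792 ± 70.3 against 720 ± 38.7 CPM and at 721 ± 41.3 against 704 ± 34.4 CPM (control and Rbfox2-/-, SD, n = 4 each). Of 21 genes of receptor signalling and desensitization tested, 1 was higher and 1 was lower at that threshold, beside 6.42% and 6.87% of all genes. Pde10a, a phosphodiesterase that breaks down cAMP and cGMP and is abundant in striatal neurons that receive dopamine, was at 40.9, 42.5, 36.4 and 33.01 CPM in the controls. Its levels in the Rbfox2-/- mice were 48.0, 56.8, 47.1 and 52.9 CPM, above all 4 controls, as for 3.64% of all genes. Pde10a had a log2 fold change of 0.42 (SE 0.0864, 95% interval 0.23 to 0.62). Its adjusted p was 0.116 by quasi-likelihood, and the adjusted p was 0.00455 in edgeR's likelihood ratio test and 0.000318 in DESeq2. Without M901 and M902, Pde10a had a log2 fold change of 0.40 (adjusted p = 0.499). Prkacb, a catalytic subunit of the cAMP-dependent kinase, was at 250.1 ± 10.2 CPM in the controls and 233.8 ± 5.94 CPM in the Rbfox2-/- mice (SD, n = 4 each), with a log2 fold change of -0.10 (SE 0.0387, adjusted p = 0.337).

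**Figure D4:**
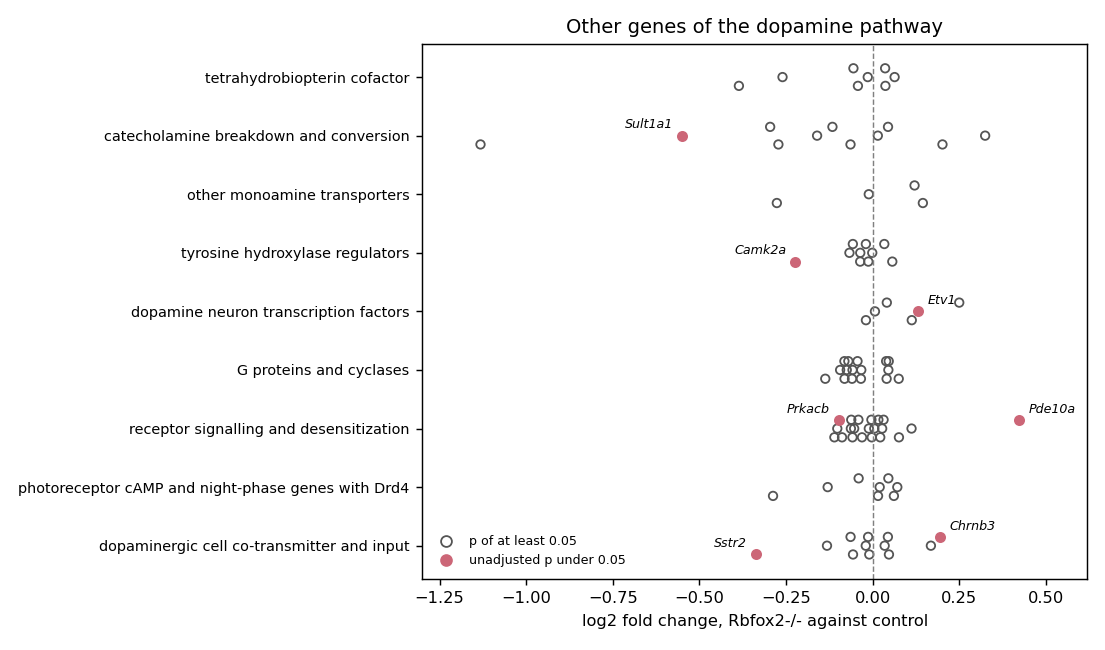
Log2 fold change, Rbfox2-/- against control, of the tested genes of 8 lists of the dopamine pathway and of a list of co-transmitter and input genes of the dopaminergic amacrine cell, with 1 point per gene; filled red points had an unadjusted p under 0.05 and are named, open points did not, and the dashed line is the median of all genes (0.0016). Most points lie close to the line, and Pde10a, at 0.42, is the farthest to the right.

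Drd4 shares its photoreceptor cell and its night-phase rhythm with genes such as Adcy1 and Aanat, and its cell with the rod factor Nrl. None of the 8 genes of this list had an unadjusted p under 0.05. The most abundant, Pdc (phosducin, which binds G protein subunits in rods), was at 2752 ± 161 CPM in the controls and 2515 ± 406 CPM in the Rbfox2-/- mice, and Nrl was at 1545 ± 40.4 and 1623 ± 114 CPM (SD, n = 4 each). The summed level of the rod and cone markers was 57900 to 62300 CPM in the controls and 60300 to 65600 CPM in the Rbfox2-/- mice, with 4 of 10 higher and 1 of 10 lower at an unadjusted p under 0.05, beside 6.42% and 6.87% of all genes. Their part in the values of Drd4 was not tested.

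The dopaminergic amacrine cell also releases GABA and receives input from melanopsin ganglion cells and from bipolar cells. Of 12 co-transmitter and input genes, 1 was higher and 1 was lower at an unadjusted p under 0.05, beside 6.42% and 6.87% of all genes. Sstr2, a somatostatin receptor, was at 4.23, 3.17, 4.23 and 3.73 CPM in the controls and at 3.10, 3.29, 2.95 and 2.82 CPM in the Rbfox2-/- mice. Its log2 fold change was -0.34 (SE 0.110, adjusted p = 0.268), with 1 control, M894, among the Rbfox2-/- values. Chrnb3, a nicotinic acetylcholine receptor subunit, was at 99.9 ± 9.19 CPM in the controls and 114 ± 11.9 CPM in the Rbfox2-/- mice (SD, n = 4 each), and its log2 fold change of 0.19 (adjusted p = 0.363) was 0.13 (adjusted p = 0.394) without M833.

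Markers of amacrine cells and of tissue next to the retina were summed beside the dopaminergic genes. The 10 amacrine markers summed to 1530 to 1620 CPM in the controls and 1490 to 1580 CPM in the Rbfox2-/- mice, and 0 of them had an unadjusted p under 0.05. Sympathetic nerve, which also uses Th, was looked for by a marker list of which 4 genes were tested. Chga and Npy, which retinal neurons also use, made up nearly all of its sum of 224 to 246 CPM in the controls and 234 to 259 CPM in the Rbfox2-/- mice, so the sum does not measure sympathetic nerve. Npy was the 1 gene of it that was higher at an unadjusted p under 0.05. The noradrenaline transporter gene Slc6a2 was at 0.713 ± 0.219 and 0.588 ± 0.230 CPM, and the defining enzyme gene Dbh was at 0.235 ± 0.0986 and 0.293 ± 0.0792 CPM (control and Rbfox2-/-, SD, n = 4 each). Markers of pigment epithelium, ciliary body and iris ran from 149 to 537 CPM in the controls and from 111 to 256 CPM in the Rbfox2-/- mice, with 4 of 13 lower at an unadjusted p under 0.05, beside 6.87% of all genes. By mouse the sums were 149, 342, 160 and 537 CPM in the controls and 214, 111, 139 and 256 CPM in the Rbfox2-/- mice. The highest was in M898, the control with the lowest Th, Slc18a2 and Pde10a levels. M894 had the next highest sum with Th at 5.31 CPM, level with 5.33 CPM in M833, the control with the lowest sum. For Drd4, M898 had the highest level of all mice, at 224 CPM, and M894 the lowest of the controls, at 171 CPM. Blood and vessel markers summed to 172 to 185 CPM in the controls and to 131 to 163 CPM in the Rbfox2-/- mice, which did not overlap, and 3 of 6 tested were lower at that threshold. Müller glia markers summed to 6200 to 6910 CPM and 5540 to 6270 CPM, with 2 of 8 lower. The part of these markers in the results was not tested.

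**Figure D5:**
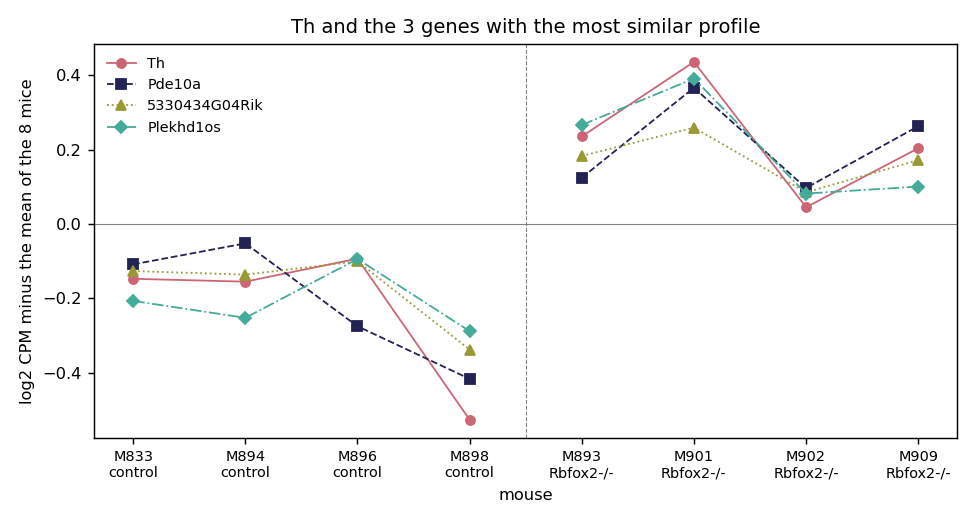
Log2 CPM of Th and of the 3 genes with the most similar profile, each minus its own mean over the 8 mice, by mouse, with controls to the left of the dashed line and Rbfox2-/- mice to the right. All 4 genes lie below 0 in the 4 controls and above 0 in the 4 Rbfox2-/- mice, M898 is the lowest control for each of them, and M901 is the highest Rbfox2-/- mouse.

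The genes whose pattern over the 8 mice was most like that of Th were found among all 16797 genes by the mean absolute difference of centred log2 CPM. The measure includes the difference between the groups, so it favours genes that differ in the same direction. The closest were 5330434G04Rik (0.0671), Plekhd1os (0.0764) and Pde10a (0.0906), where Th itself deviated from its own mean by 0.230 on average. On the log2 scale the fold change of 5330434G04Rik was 0.35 (adjusted p = 0.176) and that of Plekhd1os was 0.43 (adjusted p = 0.233). For Drd4, with a mean deviation of 0.169, the closest were Arsi (0.0425, log2 fold change -0.21), 2310010J17Rik (0.0448, log2 fold change -0.19) and Ebpl (0.0489, log2 fold change -0.22, adjusted p = 0.297). None of these 6 genes passed the FDR in the quasi-likelihood test. In DESeq2, Pde10a (adjusted p = 0.000318) and 5330434G04Rik (adjusted p = 0.00839) did, beside 2.80% of all genes. Th passed there too, and these genes were picked for their likeness to it, so their passing is no separate sign.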

How the data were processed

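Whole-retina poly(A) libraries of 4 control and 4 Rbfox2-/- mice, 1 per mouse, were sequenced with paired reads. The authors used STAR for alignment to mm10 and HTSeq for counting per gene, from reads that mapped to 1 place; RefSeq and Ensembl are both named as annotation, and the strand setting is not given in the sources used here. The deposited table gives raw counts and the authors' FPKM values, which were used here, and normalized counts, fold changes, p-values and FDR of the authors' edgeR comparison, which were not. FPKM served only to compare levels between genes.

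From the counts, filterByExpr of edgeR 4.0.16 (R 4.3.3) kept 16797 of 17500 genes. Libraries were scaled by TMM and groups compared by edgeR's quasi-likelihood test without covariates, with Benjamini-Hochberg adjustment over all genes tested and an FDR threshold of 0.05. All CPM values are TMM-scaled, and intervals are 95%. The SE is the log2 fold change over the square root of F. Alternatives were edgeR's likelihood ratio test, DESeq2 1.42.0, limma-voom (limma 3.58.1), DESeq2 size factors, upper-quartile scaling, no filter, at least 10 counts in every library, leaving out each mouse, leaving out M901 and M902, and 1 surrogate variable (sva 3.50.0).

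The 9 genes and all lists were chosen with earlier results of these data known. Named genes are the 9 members, Rbfox2, the genes of each pathway or amacrine list with an unadjusted p under 0.05 or else its 2 most abundant, the 3 genes most like Th and Drd4, and defining markers; Gch1, Adcy1 and Aanat are named for their role only. Every pair of libraries differed by more than sampling noise (lowest chi-square per degree of freedom 35.7 over 28 pairs). The procedure was run on simulated data, where 4.5% of genes changed 1.2-fold and 72% of those changed 1.4-fold passed the FDR. In each of these runs 200 genes were changed, and at 1.4-fold 13 unchanged genes passed too. Changed genes were drawn only from those above a limit on the mean count, which Slc6a3 does not reach. With no gene changed, 4.37% had an unadjusted p under 0.05, beside 13.3% in the real data. The simulated libraries were drawn independently, with none set apart as M901 and M902 were. The counting error given is that of reads and does not cover differences among mice.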

Additional observations from a re-analysis of the deposited data

Results flagged for a closer look

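In 4 of 60 groups of 4 mice examined, 1 value lay farther from the others than Dixon's 95% limit allows, where chance gives about 1 in 20, or 3 groups. Th in control M898 was at 4.099 CPM, against 5.31 to 5.54 CPM in the other controls, and without M898 the log2 fold change of Th was 0.37 with an adjusted p of 0.397. 5330434G04Rik, the gene most like Th, was at 3.269 CPM in the same mouse, against 3.76 to 3.85 CPM in the other controls; it was chosen for its likeness to Th over these mice, so this value is no separate sign. Slc29a4 was at 30.67 CPM in M909, against 40.2 to 41.7 CPM in the other Rbfox2-/- mice. Chrnb3 was at 86.24 CPM in control M833, against 103 to 105.5 CPM in the others.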

How the results depend on the processing

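No paired analysis was possible because the labels give each mouse its own number and no numbers shared between the groups.

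Over 17 alternatives the log2 fold change of Th ran from 0.37 to 0.52, with an unadjusted p under 0.05 in all 17. Its FDR was under 0.05 in 1, DESeq2 (log2 fold change 0.4573, adjusted p = 0.00903). The log2 fold change of Th was 0.39 (adjusted p = 0.658) with 1 surrogate variable and 0.38 (adjusted p = 0.426) without M901. Drd4 ran from -0.31 to -0.18 with an unadjusted p under 0.05 in 11 of 17, and not without M896, M898, M893, M901, both M901 and M902, or with the surrogate variable. DESeq2 passed 1 of the 9 dopamine genes, beside 2.80% of all genes. When 1 mouse was left out, 1 to 3 of the 9 had an unadjusted p under 0.05 (1 without M896 or M898). The share of all genes at that threshold was then 8.83% to 17.8%. Differences close to 0 turned sign: Drd2 without M901 and M902 (-0.0452), with the surrogate variable (-0.0624), and without M898 (-0.0041) or M901 (-0.0177), in a range of -0.0177 to 0.0960 without 1 mouse; Maoa without M833, M896, M893 or M909 (-0.0278 to -0.0031, in a range up to 0.0591); Slc6a3 without M833 (0.0261, in a range from -0.2884); Spr without M894 (-0.0094, in a range up to 0.0687); Slc29a4 without M896, M898 or M909 (0.0024 to 0.0818, in a range from -0.0558); and Nrl without M901 and M902 (-0.0107) or with the surrogate variable (-0.0083). Of the other pathway genes (83 tested in the main fit), 9 had an unadjusted p under 0.05 in DESeq2, 8 in limma-voom and 2 to 15 without 1 mouse. The shares of all genes in these settings were 14.3%, 12.8% and 8.83% to 17.8%.

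Over all genes, the FDR was passed by 164 in the likelihood ratio test (80 higher, 84 lower), 460 in DESeq2 (232 higher, 228 lower), 5 with the surrogate variable (3 higher, 2 lower), 1 without M901 and M902 (0 higher, 1 lower) and 5 to 35 without 1 mouse (2 to 13 higher, 2 to 22 lower; 35 without M833). An unadjusted p under 0.05 was held by 1027 without M901 and M902 and by 1083 with the surrogate variable. The causes were not tested. Counting gave a spread of 14.3% for Slc6a3 and 8.92% for Ddc, and of at most 3.62% for the other 7 genes.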
